A study of Mus musculus with 6 samples.

Results

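Red-cell-like nuclei of the embryonic mouse pancreas at embryonic day 13.5 (E13.5) were described from single-nucleus ATAC sequencing, in which a transposase marks accessible DNA. They were chosen by their own scores: nuclei with at least 2000 genes above 0 and a summed gene score of Slc4a1, Gypc, Tal1 and Lyl1 of at least 15. The rule found 376 nuclei among 2395 with at least 2000 genes above 0, out of 2916 E13.5 barcodes and 6373 barcodes in the whole series. The wild-type library (WT) gave 133 of them and the mutant library (KO) gave 243.

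The study profiled embryonic pancreatic tissue of C57BL/6 mice in 6 libraries, 1 per group, to compare Ptf1a+/+ embryos (WT) with embryos whose genotype label is Ptf1aenh-delta/enh-delta, a homozygous deletion of an enhancer of Ptf1a (KO). Ptf1a encodes a transcription factor needed for the early pancreas. The 2 libraries used here each held nuclei from the pancreas of 6 pooled E13.5 embryos. The E10.5 libraries, RNA and ATAC of both genotypes, came from dissected progenitor tissue pooled from 5 to 9 embryos and are used below only for the rule's share and for transcripts of the same genes. The labels name no Cre, transgene or cell sort. With 1 library of pooled embryos per genotype, no difference between WT and KO has a replicate check, and no test was run. The barcodes of the WT and KO libraries also carry different months, and genotype cannot be told apart from month.

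Red cells begin as haematopoietic progenitors, in which GATA1, TAL1, LYL1 and KLF1 act on genes for the membrane skeleton, for haem and for haemoglobin. The TAL1 complex is recruited with GATA1 to WGATAR-type sequences, and KLF1 binds CACCC-type sequences. At mid-gestation the mouse circulation still carries nucleated red cells made in the yolk sac, while the fetal liver makes red cells that shed their nucleus at the end of maturation. Blood in a dissected organ can therefore contribute nuclei to a nuclear assay.

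The rule genes set the membership, and their values are a description. Slc4a1 encodes band 3, the anion exchanger of the red cell membrane, and Gypc encodes glycophorin C, which ties the membrane to its skeleton. Tal1 and Lyl1 encode related basic helix-loop-helix factors of blood progenitors and red cells. The gene score is an accessibility signal per gene, scaled so that each nucleus sums to 10000 over 8269 genes. Mean Slc4a1 score was 11.2 in WT members and 12.5 in KO members, against 0.57 and 0.711 in the other nuclei of the same libraries. Mean Gypc score was 6.41 and 6.6 in members and 0.446 and 0.808 in the others. Mean Tal1 score was 9.83 and 10.4 in members and 0.843 and 0.957 in the others. Mean Lyl1 score was 8.61 and 8.51 in members and 0.7 and 0.635 in the others. Some signal was also found outside the members: Slc4a1 was above 0 in 31.7% of the other WT nuclei and 57.3% of the other KO nuclei, and in 94.7% and 98.8% of the members.

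**Figure D1:**
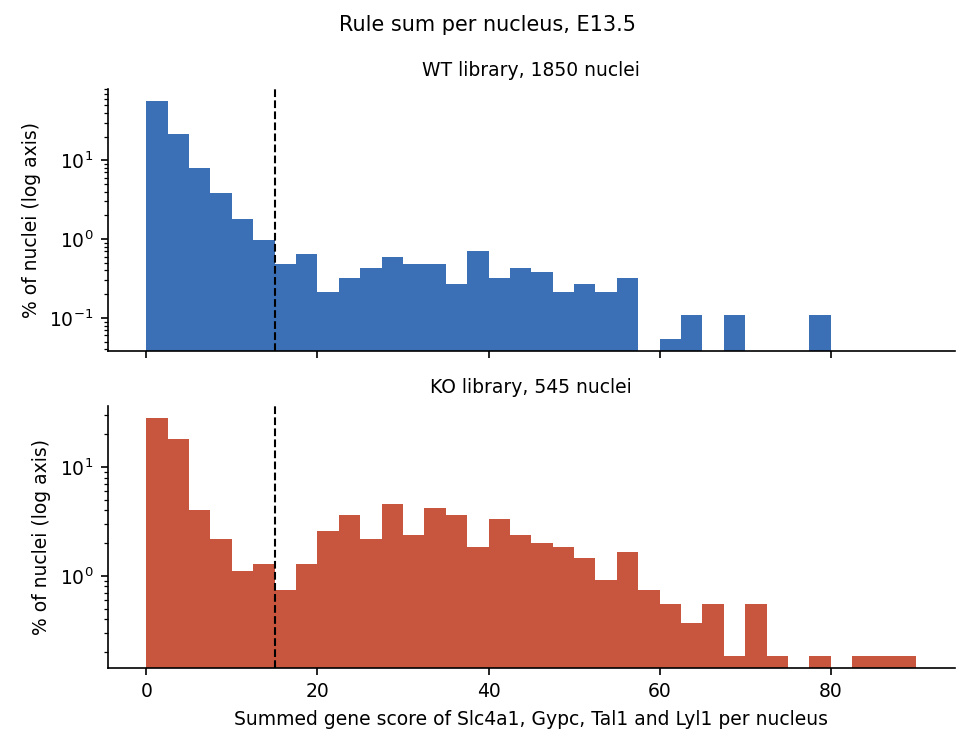
Distribution of the summed gene score of Slc4a1, Gypc, Tal1 and Lyl1 over nuclei with at least 2000 genes above 0, as a percentage of each library's nuclei on a log axis; the dashed line is the threshold of 15. Nuclei past the line made up 7.19% of the WT library and 44.6% of the KO library, and the KO library shows a dip at the threshold that the WT library hardly shows.

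Members had a median rule sum of 34.6 in WT and 35.5 in KO, and the other nuclei had medians of 1.72 and 2.42. Just inside the threshold, at a sum of 15 to 17.5, lay 9 WT and 4 KO nuclei. Just outside it, at 12.5 to 15, lay 18 WT and 7 KO nuclei. The WT nuclei just outside had a median of 50.5 for the summed score of 21 pancreatic epithelium genes, and those just inside had 58.9. The corresponding KO medians were 11.1 outside and 12 inside. At a sum of 10 to 12.5, the 6 KO nuclei had a median summed score of 81.4 over 33 haem and iron genes, and the 33 WT nuclei had 35.5. The threshold therefore fell among epithelium-scoring nuclei in the WT library and among nuclei low in epithelium score in the KO library.

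Red-cell-like nuclei made up 7.19% of the WT nuclei (133 of 1850, 95% Clopper-Pearson interval 6.05 to 8.46%) and 44.6% of the KO nuclei (243 of 545, 40.4 to 48.9%). The difference was 37.4 percentage points (95% Newcombe interval 33.1 to 41.7). These intervals cover counting error only and leave out the variation between embryos, dissections and months. Without the minimum number of genes, the shares were 7.48% of 2314 WT barcodes and 43% of 602 KO barcodes. Barcodes under 2000 genes above 0 made up 20.1% of the WT library and 9.47% of the KO library, and 40 of 464 and 16 of 57 of them reached a rule sum of 15. A share is relative: the KO library held 302 other nuclei and the WT library 1717, and whether there were more red cells or fewer pancreatic cells in the KO tissue was not tested. At E10.5 the same rule found 4 of 715 WT nuclei (0.559%) and 4 of 620 KO nuclei (0.645%). The 2 E13.5 libraries shared 2 barcodes, of which 1 was a member.

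Members had fewer genes above 0 than the other nuclei of their library, with medians of 3221 against 4014 in WT and 3858 against 5638 in KO. The number of fragments per nucleus is unknown, because the deposited signal is scaled. Across the 376 members, the Spearman correlation of the rule sum with the number of genes above 0 was -0.18, a description over nuclei of 2 libraries.

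Across the genes outside the rule, members had at least 2-fold higher mean score than the other nuclei in both libraries for 440 of 8225 genes tested (5.35%) and at least 2-fold lower for 1782 (21.7%). These ratios are of mean score plus a pseudocount of 0.1, taken within each library, so they understate the difference at low scores. The members were chosen from these same nuclei, so the counts are descriptions and were not tested. The median log2 ratio over all genes tested was -0.09 in WT and -0.10 in KO. In the WT library alone 568 genes were at least 2-fold higher and in the KO library 609, and the 440 shared genes were 77.5% of the WT genes and 72.2% of the KO genes. For lower genes the shared 1782 were 92.8% of 1921 in WT and 83.6% of 2132 in KO. No gene was past 2-fold in opposite directions in the 2 libraries (0 of 8225). A pseudocount of 0.5 left 240 higher and 808 lower genes. By the share of nuclei above 0 in place of the mean, 3 genes were at least 2-fold higher in both libraries: Klf1, Lamp1 and Ccl21a, the last 2 named after their values were seen. Klf1 was above 0 in 53.4% of WT members against 17.8% of the other WT nuclei, and in 63.8% against 29.1% in KO.

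**Figure D2:**
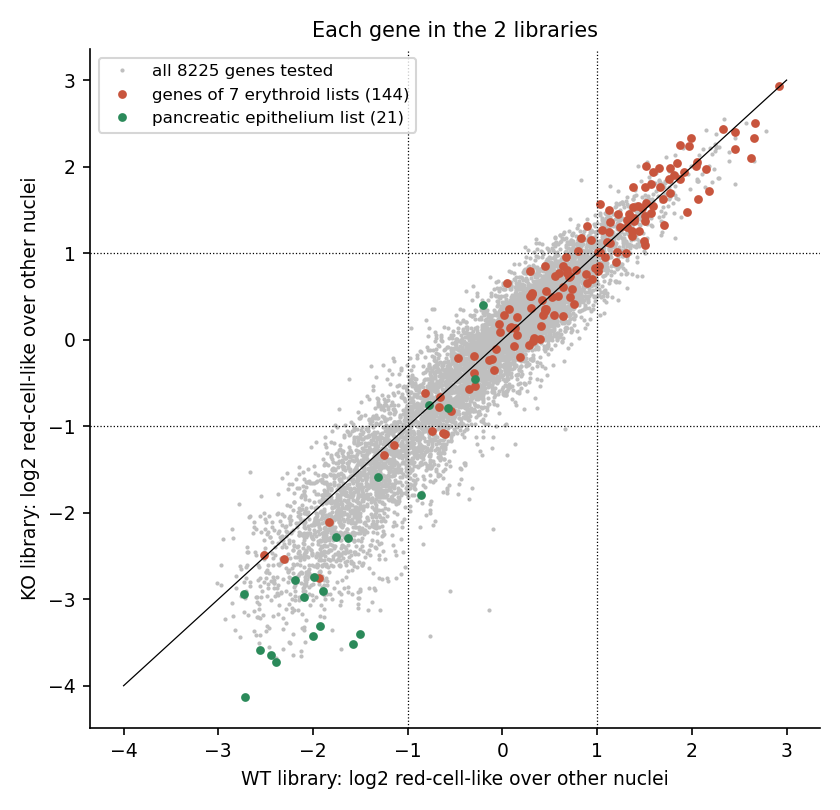
Log2 ratio of mean gene score in red-cell-like over other nuclei in the WT library (horizontal axis) and the KO library (vertical axis), 1 point per gene; dotted lines mark 2-fold and the diagonal marks equal ratios. The 144 erythroid-list genes lie mostly in the upper right, Pdzk1ip1 at the end near 2.92 in both, and the 21 epithelium genes lie mostly in the lower left, further from 0 in KO than in WT.

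Of 144 genes tested from 7 erythroid lists, 63 were at least 2-fold higher in members in both libraries and 6 were at least 2-fold lower, with a median log2 ratio of 0.86 beside -0.10 over all genes tested. Over all genes tested 5.35% were higher and 21.7% lower, shares that also stand beside the counts of each erythroid list below. Of the 144, 121 had a ratio above 0, beside 3794 of all 8225 genes tested (46.1%). Members carried both markers outside the rule. Pdzk1ip1, which encodes a small membrane protein, had mean scores of 10.4 (WT) and 11.6 (KO) in members and 1.29 and 1.44 in the others, the largest ratio of all 440 genes (log2 2.92 in WT and 2.93 in KO). Its gene lies 17 kb from Tal1. Hmox1, the haem oxygenase that breaks haem down, had 7.98 and 8.08 in members and 1.17 and 1.35 in the others (log2 2.59 on average). Hmox1 is not next to a rule gene.

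**Figure D3:**
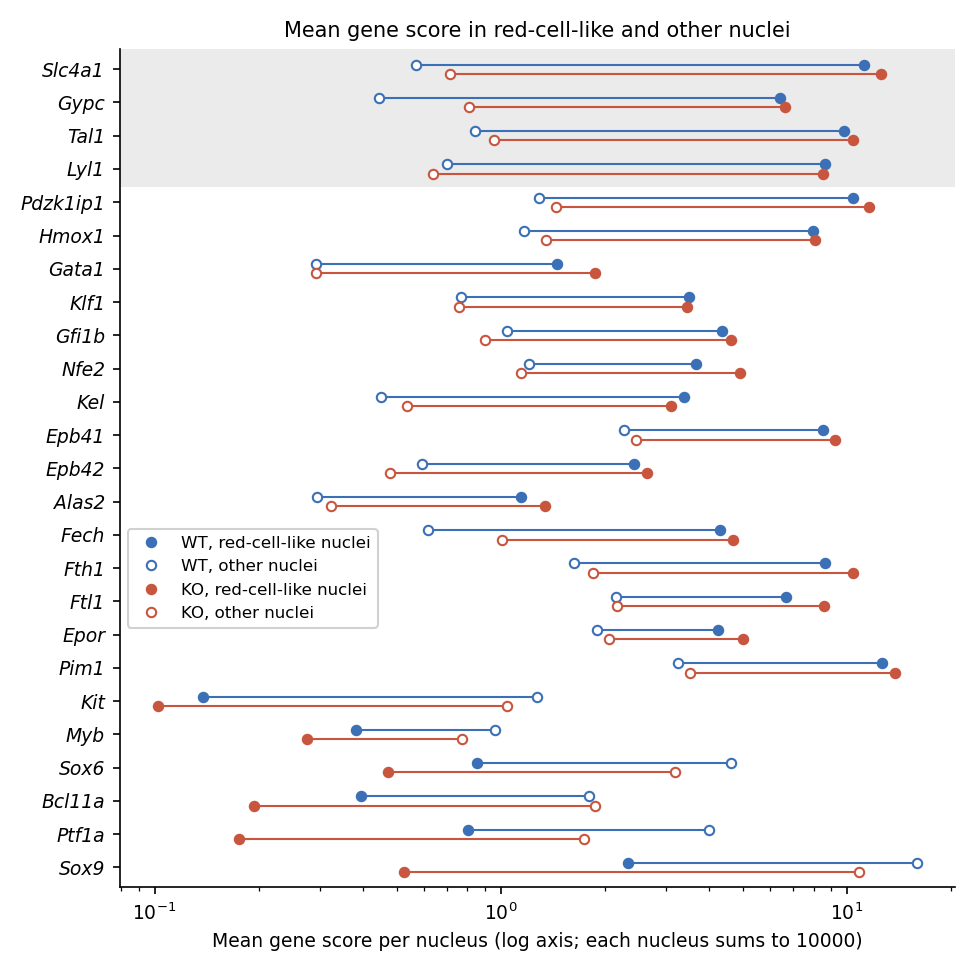
Mean gene score (log axis) of 25 genes in red-cell-like nuclei (filled) and other nuclei (open) of the WT (blue) and KO (red) libraries; lines join the 2 means of a library, and grey shading marks the 4 genes of the rule. The filled points lie right of the open ones for the erythroid genes from Slc4a1 to Pim1 and left of them for Kit, Myb, Sox6, Bcl11a, Ptf1a and Sox9.

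Among transcription factors of erythroid cells, 5 of 23 tested were higher in members and 3 lower (median log2 0.54). Gata1, the master factor of red cells and megakaryocytes, had 1.45 (WT) and 1.87 (KO) in members against 0.292 and 0.293 in the others, a log2 ratio of 2.16. Klf1, the factor of globin and other red cell genes, had 3.5 and 3.45 against 0.768 and 0.758, a ratio of 2.05 in each library. Gfi1b, a zinc finger repressor of the erythroid and megakaryocytic lineages, had 4.36 and 4.62 against 1.04 and 0.902 (log2 2.10). Nfe2, a subunit of the NF-E2 dimer, had a log2 ratio of 1.76 and Bach1, a haem-sensing repressor of Hmox1 and other genes, 1.49. The 3 lower genes were Sox6 at -2.42, Bcl11a at -2.35 and Myb at -1.18. Sox6 and Bcl11a encode repressors of embryonic globin genes in definitive red cells, and Myb encodes a factor of definitive progenitors. All 3 are also used outside blood, and Sox6 had a mean of 4.63 in the other WT nuclei against 0.851 in the WT members. Several partners of these factors were under 2-fold, among them Lmo2 at 0.33, Ldb1 at 0.74 and Zfpm1 at 0.42 (named after their values were seen).

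To show what the 5′ ends of called erythroid genes hold, RefSeq promoter windows (GRCm38.p6, 250 bases before to 50 after the start, on the gene's strand) were searched on both strands for AGATAA or TGATAA, the core that GATA factors bind, and for CACACCC, a form of the CACCC box. Of the 63 erythroid genes that were higher, 50 had a window. In 14 of these 50 (28%) a GATA match was found and in 6 (12%) a CACACCC match. Over all 440 higher genes, 50 of 352 windows (14.2%) held a GATA match, against 9.06% of the windows of uncalled genes, 10.8% of those of lower genes and 9.68% of all 6662 tested windows. CACACCC was in 9.66% of the windows of higher genes and 8.17% of all tested windows. The shares over all 27025 genes of the table were 19% for GATA and 7.85% for CACACCC. A match is a run of letters in these windows, and it says nothing about binding. The 7 windows below, from factor, membrane, haem, receptor and late erythroid genes that held a match, were chosen after the matches were seen. Capitals mark the matches. On the other strand AGATAA reads TTATCT. The spelling TGATAA there reads TTATCA. The CACCC form there reads GGGTGTG.
Gfi1b (chr2:28621933-28622232, minus strand): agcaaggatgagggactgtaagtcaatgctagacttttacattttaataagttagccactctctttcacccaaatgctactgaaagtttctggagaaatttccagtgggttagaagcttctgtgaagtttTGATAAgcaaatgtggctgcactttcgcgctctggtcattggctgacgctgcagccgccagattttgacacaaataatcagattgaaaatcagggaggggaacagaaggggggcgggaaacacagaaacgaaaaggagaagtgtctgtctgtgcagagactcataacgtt
Klf1 (chr8:84901732-84902031, plus strand): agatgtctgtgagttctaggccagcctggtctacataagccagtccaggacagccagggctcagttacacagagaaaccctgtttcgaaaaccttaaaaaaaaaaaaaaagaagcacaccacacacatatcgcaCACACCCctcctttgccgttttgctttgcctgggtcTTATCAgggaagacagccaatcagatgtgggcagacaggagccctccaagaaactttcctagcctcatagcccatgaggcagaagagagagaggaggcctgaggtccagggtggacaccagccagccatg
Kel (chr6:41704276-41704575, minus strand): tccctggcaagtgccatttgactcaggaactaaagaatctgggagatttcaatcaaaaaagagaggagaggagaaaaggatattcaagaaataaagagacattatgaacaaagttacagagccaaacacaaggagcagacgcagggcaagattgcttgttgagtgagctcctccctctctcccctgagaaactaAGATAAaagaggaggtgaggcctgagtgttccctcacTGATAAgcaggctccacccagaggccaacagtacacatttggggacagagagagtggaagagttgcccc
Alas2 (chrX:150547167-150547466, plus strand): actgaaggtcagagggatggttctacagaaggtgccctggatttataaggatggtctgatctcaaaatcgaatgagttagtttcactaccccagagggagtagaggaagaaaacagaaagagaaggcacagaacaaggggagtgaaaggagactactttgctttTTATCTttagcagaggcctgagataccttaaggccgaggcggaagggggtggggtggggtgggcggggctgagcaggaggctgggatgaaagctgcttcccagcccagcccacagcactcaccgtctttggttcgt
Cpox (chr16:58669958-58670257, plus strand): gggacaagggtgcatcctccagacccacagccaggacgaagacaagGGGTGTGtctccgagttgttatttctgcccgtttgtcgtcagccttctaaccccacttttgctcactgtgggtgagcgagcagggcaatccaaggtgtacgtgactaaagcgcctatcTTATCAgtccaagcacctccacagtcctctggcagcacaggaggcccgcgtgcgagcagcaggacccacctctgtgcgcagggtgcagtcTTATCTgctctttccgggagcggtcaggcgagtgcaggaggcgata
Epor (chr9:21963527-21963826, minus strand): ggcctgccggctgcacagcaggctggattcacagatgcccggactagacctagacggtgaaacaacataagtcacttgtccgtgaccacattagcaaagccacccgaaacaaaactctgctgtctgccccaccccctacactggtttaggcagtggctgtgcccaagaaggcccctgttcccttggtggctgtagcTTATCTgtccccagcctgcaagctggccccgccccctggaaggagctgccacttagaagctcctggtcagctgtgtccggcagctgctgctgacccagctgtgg
Trim10 (chr17:36869324-36869623, plus strand): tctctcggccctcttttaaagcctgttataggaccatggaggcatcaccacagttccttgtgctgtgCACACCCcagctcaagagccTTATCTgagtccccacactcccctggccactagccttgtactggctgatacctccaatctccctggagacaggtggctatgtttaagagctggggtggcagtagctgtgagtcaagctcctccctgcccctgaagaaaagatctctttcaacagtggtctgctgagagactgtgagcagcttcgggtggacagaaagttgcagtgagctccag

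In the Gfi1b window a TGATAA began 120 bases before the start. In the Klf1 window a TTATCA began 80 bases before the start and a CACACCC 116 bases before it. Kel carried both GATA spellings, 56 and 19 bases before the start. Alas2 and Epor each held 1 TTATCT, 86 and 54 bases before the start. Cpox and Trim10 each held both motif kinds.

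Of 27 membrane and membrane-skeleton genes tested, 15 were higher in members and 1 lower (median log2 1.15). The highest was Kel, the Kell blood group protease, with 3.38 (WT) and 3.1 (KO) in members and 0.45 and 0.535 in the others (log2 2.50). The spectrin skeleton was represented by Sptb at 1.31, its anchor ankyrin by Ank1 at 1.35, and the linking proteins 4.1 and 4.2 by Epb41 at 1.86 and Epb42 at 2.06. Mean Epb41 score reached 8.54 in WT members and 9.2 in KO members. Add2, which encodes beta-adducin, was at 2.02, dematin (Dmtn) at 1.31 and tropomodulin 1 (Tmod1) at 1.15. Among blood group genes, Ermap was at 1.85, Rhd at 1.47 and Rhag at 1.02. Tspan33 was at 1.40 and Bsg at 1.28. The lower gene was Cd44, an adhesion receptor that declines as erythroblasts mature, with 0.128 and 0.0907 in members against 0.71 and 0.725 in the others (log2 -1.97).

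Of 32 genes of haem synthesis, haem breakdown and iron handling tested, 17 were higher in members and 0 lower (median log2 1.19). Alas2, the erythroid form of the first and rate-limiting enzyme of haem synthesis, had 1.14 (WT) and 1.34 (KO) in members against 0.295 and 0.324 in the others (log2 1.71). Alas1, the form used by other tissues, was the lowest of the list at -0.68 and was under 2-fold. Further along the pathway Uros was at 1.52, Cpox at 1.25, Ppox at 1.31 and Fech, which inserts iron into haem, at 2.36. Fech had means of 4.3 and 4.67 in members against 0.615 and 1.01 in the others. Of the mitochondrial carriers and exporters, Abcb10 was at 1.81, Slc25a38 at 1.67, Abcb6 at 1.64, Slc25a39 at 1.55 and Tmem14c at 1.30. Slc25a39 lies 37.7 kb from Slc4a1, a rule gene. Iron storage genes were among the highest: ferritin heavy chain, Fth1, had 8.61 and 10.4 against 1.63 and 1.85 (log2 2.38), and ferritin light chain, Ftl1, was at 1.76. Ncoa4, the receptor that delivers ferritin for breakdown, was at 1.38, the endosomal iron reductase Steap3 at 1.13, Glrx5 of iron-sulphur cluster assembly at 1.40 and the biliverdin reductase Blvrb at 1.69. The receptor for transferrin, Tfrc, was under 2-fold at 0.62 (named after its value was seen). Of 14 listed globin genes and their chaperone, the tables used here scored 1, cytoglobin (Cygb), at 0.13; the haemoglobin genes were not analysed here.

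Of 16 genes of erythropoietin and stem cell factor signalling tested, 4 were higher and 1 lower, with a median log2 of -0.01. The erythropoietin receptor gene, Epor, had 4.25 (WT) and 5.02 (KO) in members against 1.89 and 2.06 in the others (log2 1.19). Pim1, a survival kinase, had 12.6 and 13.8 against 3.25 and 3.53 (log2 1.93). Bcl2l1, which encodes the survival protein Bcl-xL, was at 1.50 and Csf2rb, a cytokine receptor subunit, at 1.11. Kit, the stem cell factor receptor of progenitors, was lower at -2.51, with 0.138 and 0.102 in members against 1.27 and 1.04. Kit was thus the single called gene of this list with the opposite sign.

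Of 22 late erythroid and organelle-clearance genes tested, 15 were higher and 0 lower (median log2 1.28). Bnip3l, the mitophagy receptor of maturing red cells, was at 1.31 and its relative Bnip3 at 1.35. The autophagy genes Map1lc3b and Gabarapl1 were at 1.16 and 1.01. Ubiquitin-system genes were Ube2l6 at 2.42, Rnf10 at 2.06, Trim10 at 1.95, Ube2o at 1.30 and Fbxo9 at 1.27. Fam210b, of mitochondrial iron import, was at 2.33, with 4.48 (WT) and 5.34 (KO) in members against 0.733 and 1.08. Ranbp10 at 1.87, Gclm at 1.73, Mxi1 at 1.34 and Hemgn at 1.12 were the others beside Pdzk1ip1. The lowest of the list was Tspo2 at -0.46, which was under 2-fold.

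Of 23 antioxidant and energy-metabolism genes tested, 7 were higher and 1 lower (median log2 0.71). Prdx2, the main peroxiredoxin of red cells, had 6.77 (WT) and 6.9 (KO) in members against 1.82 and 1.61 (log2 1.94). Car2, a carbonic anhydrase, was at 1.81, Gpx1 at 1.71, Bpgm, which makes bisphosphoglycerate, at 1.57, Nt5c3 at 1.56, G6pdx at 1.52 and Hk1 at 1.44. The lower gene was Nxn, nucleoredoxin, at -1.29.

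**Figure D4:**
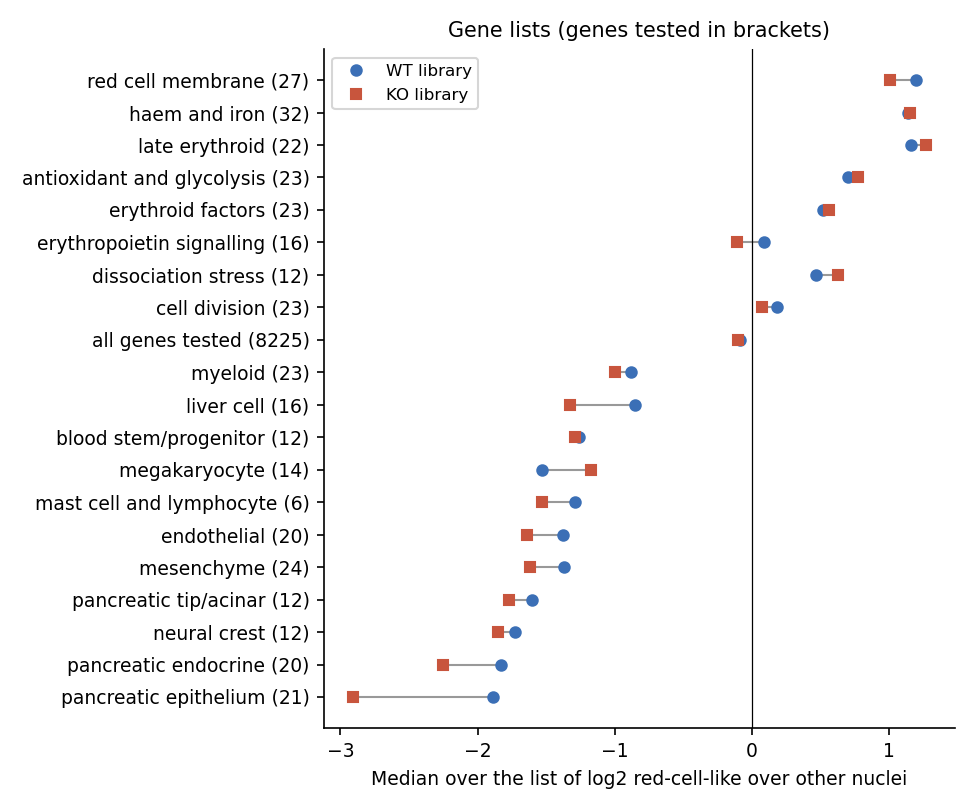
Median over each gene list of the log2 ratio of red-cell-like over other nuclei in the WT (circle) and KO (square) libraries, with the number of genes tested in brackets. The red cell membrane, haem and iron, and late erythroid lists lie above 1, and the pancreatic epithelium list is the lowest, at -1.89 in WT and -2.91 in KO.

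The lists for other cell types are set beside the 21.7% of all genes tested that were lower and the 5.35% that were higher. Of 21 pancreatic epithelium genes 16 were lower and 0 higher (median log2 -2.45), led by Sox9, a progenitor and duct factor, at -3.42, with 2.33 (WT) and 0.527 (KO) in members against 15.9 and 10.8 in the others. Pdx1, the pancreas master factor, was at -3.07, and Foxa2, a factor of gut endoderm, was at -3.04. Of 12 tip and acinar genes 8 were lower, including Ptf1a itself, with 0.802 and 0.175 in members against 4 and 1.74 (log2 -2.46). The highest of that list, Cel at 1.04, was past 2-fold in KO alone, and it lies on chromosome 2 (chr2:28555819-28563403) near Gfi1b (chr2:28609450-28621982). Of 20 endocrine genes 18 were lower, of 24 mesenchyme genes 16, of 20 endothelial genes 12, of 12 neural crest genes 10 and of 16 liver cell genes 6, with 0 higher in each. Among the blood lists, 8 of 12 stem and progenitor genes were lower and 1 was higher, Ikzf1 at 1.31, which encodes a lymphoid and erythroid factor. Of 14 megakaryocyte genes 8 were lower and 0 higher, of 6 mast cell and lymphocyte genes 3 were lower and 0 higher, and of 23 myeloid genes 8 were lower and 1 higher, Cebpe at 1.49. The median summed score of the 23 myeloid genes was 12.4 in WT members and 12.7 in KO members, against 17.7 and 18.2 in the others. The 12 stem and progenitor genes summed to a median of 3.72 and 4.16 in members and 15.8 and 14.3 in the others. The liver cell and myeloid counts lie nearest to the share of all genes that were lower, and the list of 6 mast cell and lymphocyte genes is too short to read.

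Of 23 cell division genes 3 were higher and 4 lower (median log2 0.12). Over all genes tested, 5.35% were higher and 21.7% lower, a background that also applies to the stress genes below. The count of 4 lower cell division genes lies near that share. Cdkn1b, which encodes the cell cycle inhibitor p27, had 5.64 (WT) and 5.25 (KO) in members against 2.11 and 2.0 in the others (log2 1.36). Mcm5, a subunit of the replicative helicase, was at 1.24 and Mki67 at 1.17. Mcm5 (chr8:75109468-75128439) lies next to Hmox1 (chr8:75093618-75100593). Lower were the D-type cyclin genes Ccnd2 at -2.07 and Ccnd1 at -1.49, the mitotic kinase gene Cdk1 at -1.47 and Mcm3 at -1.23. All of these except Cdkn1b and Ccnd2 were named after their values were seen. Of 12 dissociation stress genes 3 were higher, Dusp1 at 1.42, Zfp36 at 1.26 and Junb at 1.10, and Jun was lower at -1.28.

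Outside the lists, the highest genes included Slc20a1, a phosphate transporter, with 6.82 (WT) and 7.52 (KO) in members against 0.905 and 1.33 (log2 2.60). Zc3hav1, an antiviral RNA-binding protein, was at 2.53, Gcnt1, a glycosyltransferase, at 2.45, and Arid3a, a DNA-binding factor, at 2.40. Rbm38, an RNA-binding protein, had 9.08 and 8.88 against 1.59 and 1.68 (log2 2.39). The atypical chemokine receptor gene Ackr3 was at 2.36, Nudt4 at 2.31 and Tmcc2 at 2.29. With Pdzk1ip1, Hmox1, Kel, Ube2l6, Fth1, Fech and Fam210b these made up the 15 highest. Besides Sox9, Pdx1 and Foxa2, the 10 lowest included Plk2 at -3.11, Atp1b1 at -3.09, Kif12 at -3.08, Dlk1 at -3.07 and Cyr61 and Hmga2, both at -3.04. The 5 genes whose score followed the rule sum most closely over all 2395 nuclei were Pdzk1ip1 (Spearman 0.45), Rundc3a (0.42), and Epb41, Slc20a1 and Zc3hav1 (0.39 each), a description in sparse scores of nuclei that share 2 libraries. Rundc3a lies 28.1 kb from Slc4a1.

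The higher genes lay close together in the genome. Of the 440 higher genes, 152 (34.5%) had another higher gene within 50 kb, against 9.04% of the uncalled genes and 1.35% of the lower genes. Lower genes also had lower neighbours: 22.1% had another lower gene within 50 kb, against 15.2% of the uncalled genes. These shares are not adjusted for gene length or for the number of tested genes nearby. No source used here gives the distance around a gene over which the score counts, and whether neighbours share signal was not tested. Of 8 tested genes within 50 kb of a rule gene, 6 were higher: Ubtf, Rundc3a and Slc25a39 beside Slc4a1, Pdzk1ip1 beside Tal1, and Trmt1 and Nfix beside Lyl1. Nfix overlaps Lyl1, and Trmt1 lies 1.61 kb from it. These 6 are 1.36% of the higher genes. There were 13 runs of at least 3 higher genes at most 50 kb apart, with 54 genes in all. The longest, of 8 genes over 173 kb of chromosome 8 (chr8:84901982-85075162), held Klf1 at 2.05, Dnase2a at 1.68, Rnaseh2a at 1.77, Prdx2 at 1.94, Junb at 1.10, Asna1 at 1.32, Trir at 1.47 and Dhps at 1.15. Dnase2a encodes the nuclease with which macrophages digest expelled red cell nuclei. A run of 5 on chromosome 7 (chr7:45434839-45526268) held the ferritin gene Ftl1 at 1.76 with Gys1 at 1.53, Bax at 1.92, Nucb1 at 1.63 and Ppp1r15a at 1.70, and another on chromosome 10 (chr10:79927043-80039659) began with Arid3a. Prdx2 and Junb thus stood in a run, and Slc25a39, in none of the runs, had the higher gene Rundc3a beside it. Gata1, Alas2 and Epb42 also stand in none of these runs, which does not exclude a single higher neighbour. Higher genes were shorter, with a median length of 14.9 kb against 45.1 kb for lower genes and 23.5 kb for all genes tested.

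Members varied among themselves. In KO the median summed score of the 33 haem and iron genes was 91.7 at a rule sum of 15 to 20, 90.9 at 20 to 30, 96.3 at 30 to 40 and 102 above 40. In WT it was 47.1 at 15 to 20, and then 91.1, 95.1 and 103. The summed score of the 27 membrane genes was 48.4 in WT and 56.9 in KO at 15 to 20, and 65.3 in both at 20 to 30. The 4 KO nuclei at 15 to 17.5 had a haem and iron score of 66.9 and a membrane score of 51.2, and the 9 WT nuclei there had 42.6 and 29.8. At 15 to 17.5 both scores were thus lower than at 20 to 30 in each library, with only 4 KO nuclei there. Over 15 to 20 the KO haem and iron score, 91.7, was not lower than at 20 to 30. Of the 21 WT nuclei at 15 to 20, 10 had an epithelium score above the 5th percentile of the other WT nuclei (a summed score of 37.7), and of the 11 KO nuclei in the same bin 0 lay above the corresponding KO value of 27.8. Over all members, 18 of 133 in WT (13.5%, 95% interval 8.22 to 20.5%) and 3 of 243 in KO (1.23%, 0.255 to 3.57%) lay above the line of their library. The 18 WT members had a median rule sum of 18.4, a median haem and iron score of 42.2 and a median of 2643 genes above 0. The remaining 115 WT members had 37.7, 96.5 and 3232. The 240 KO members below their line had a median rule sum of 35.4 and a haem and iron score of 97.1. Without the members above the line, 63 of 144 erythroid genes were at least 2-fold higher and 7 lower, against 63 and 6 with them. The median log2 ratio was then 0.90. No doublet caller was run, since the scaled signal holds no counts, and the part of mixed droplets or free DNA in these nuclei was not tested.

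**Figure D5:**
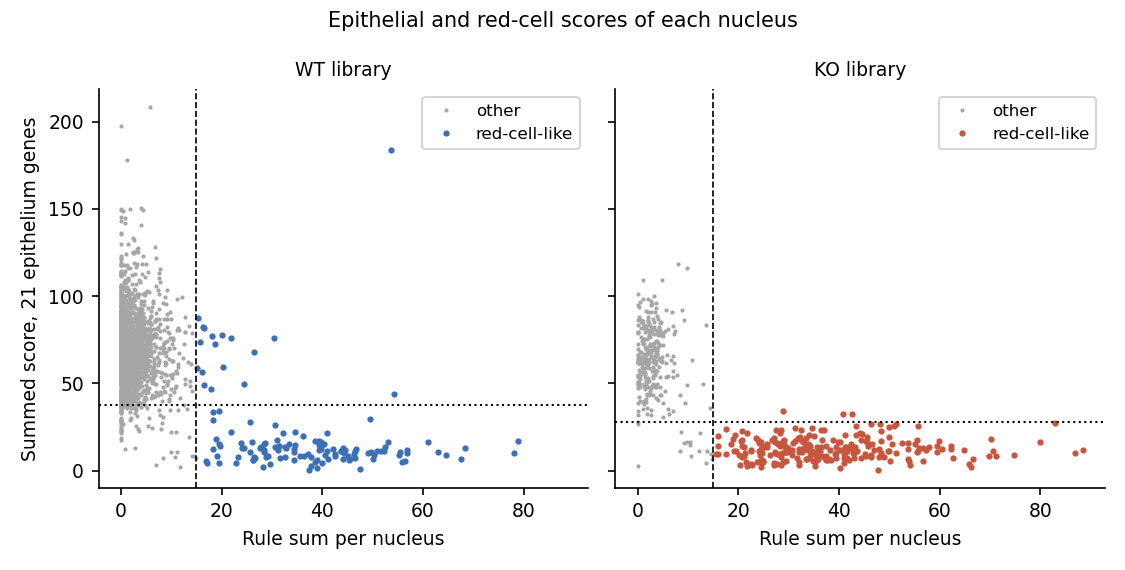
Summed score of 21 pancreatic epithelium genes against the rule sum, 1 point per nucleus, in the WT and KO libraries; the dashed line is the rule threshold of 15 and the dotted line the 5th percentile of the other nuclei. Above the dotted line lie 18 of 133 WT members, 10 of them at rule sums under 20, and 3 of 243 KO members.

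Within the red-cell-like nuclei, KO over WT was at least 2-fold higher for 2 of 7833 genes tested (0.0255%) and at least 2-fold lower for 118 (1.51%), on the same log2 scale, with 5% of genes below -0.64 and 5% above 0.38. Of the 144 erythroid genes 0 were past 2-fold in either direction, a count near that background, and their median log2 ratio was 0.07 beside -0.02 for all genes tested. They ranged from -0.75 (Bcl11a) to 0.51 (Car2), and 140 of 144 were within 0.5 of 0. The extremes depended on the members above the epithelium line. Without those members the range was -0.58 (Lyn) to 0.64 (Sox6). Bcl11a then changed sign, to 0.55, as did Sox6, from -0.74. Over all members Gata1 was at 0.34, Klf1 at -0.02, Gfi1b at 0.08, Alas2 at 0.21, Epor at 0.24, Hmox1 at 0.02 and Pdzk1ip1 at 0.16. With 1 library per genotype this is no test that the genotypes are alike.

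The 118 genes lower in KO members were led by Nkx6-1, and Sox9 and Ptf1a were among the 8 lowest. Nkx6-1, a factor of pancreatic progenitors and beta cells, had 1.26 in WT members and 0.126 in KO members (log2 -2.59), and 1 WT nucleus held 55.1% of the WT members' sum. Flt1, a receptor for vascular endothelial growth factor, had 0.97 and 0.17 (-1.99), and the same nucleus held 71.9% of its WT sum. Trio, a guanine nucleotide exchange factor, had 1.57 and 0.32 (-1.99) and Rph3al was at -1.86, with 29.9% and 53.5% of their WT sums in another single nucleus. Both nuclei lay above the epithelium line. Sox9 had 2.33 and 0.527 (-1.96), with 12.3% of the WT sum in its highest nucleus. Meis1 and Rbpms were at -1.83, and Ptf1a had 0.802 and 0.175 (-1.72). The KO allele lacks an enhancer of Ptf1a. Whether the Ptf1a score counts the deleted stretch is unknown, and its part in this ratio was not tested. Ptf1a was above 0 in 14.3% of WT members and 12.8% of KO members, and the top 10% of the WT members held 93.2% of its summed score. Of the 118 genes, 105 (89%) were also at least 2-fold lower in members than in other nuclei, beside 21.7% of all 8225 genes tested. The 118 came from the 7833 genes tested for KO over WT, and the share lower among those is not given here. These counts moved with the members above the epithelium line. Without the members above the line of each library, 5 of 7803 genes tested were lower, 4 of them among the 118, and 30 were higher. Except for Tpgs1 (0.673) and Madcam1 (0.702), these 30 had low WT means, from 0.00447 (Tshz1) to 0.239 (Ptprn2). Such means lie near or below the pseudocount of 0.1, so these ratios rest on very low scores. Rbpms was then at -0.89, Ptf1a at -0.69, Sox9 at -0.30, Trio at -0.10, Flt1 at 0.15, Nkx6-1 at 0.36 and Rph3al at 0.53. Sox9 and Nkx6-1 are among the 21 genes whose sum sets the line, so their values there follow in part from the choice of nuclei. The lower genes below the line included Phlda3 at -1.46, Meis1 at -1.35, Mex3b at -1.15 and Asap2 at -1.03, all but Meis1 named after their values were seen.

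The genes highest in KO members were Peg12, an imprinted gene, with 0.0409 in WT and 0.183 in KO (log2 1.01), and Tpgs1 and Madcam1, both at 1.00, of which Tpgs1 passed 2-fold and Madcam1 fell just short. Tpgs1 had 0.784 in WT members and 1.67 in KO members, and Madcam1 had 0.827 and 1.75. Tpgs1 (chr10:79669439-79676127) lies next to Madcam1 (chr10:79664559-79668542), and whether the 2 genes share signal was not tested. Abhd10 was at 0.99, Zik1 at 0.95, Ipo9 at 0.91, and Mgp and Bicd1 at 0.89. Below the epithelium line Peg12 was at 1.11, Tpgs1 at 1.20 and Madcam1 at 1.22. The counts depended on the settings: they were 24 higher and 267 lower with a pseudocount of 0.01, 0 and 7 with 0.5, 1 and 21 among genes above 0 in at least 25% of a group's nuclei, 19 and 27 at a rule sum of 20, 8 and 64 at 3000 genes above 0, and 73 and 1 by the share of nuclei above 0. KO members had more genes above 0 than WT members, a median of 3858 against 3221, and with both set to the same spread of genes above 0 the counts were 4 and 100.

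Transcripts of the same genes were present at E10.5. In single-cell RNA counts, Slc4a1 had 39 UMIs over 1104 WT barcodes and 41 over 815 KO barcodes, and 35 (3.17%) and 34 (4.17%) of the barcodes held at least 1. Gypc had 32 and 39 UMIs, Tal1 10 and 15 and Lyl1 4 and 11. Alas2 had 22 and 22, Klf1 9 and 18 and Gata1 10 and 8. Hmox1, which other cells also express, had 44 and 52, and Pdzk1ip1 had 5 and 21. With 1 RNA library per genotype these counts are a description of the 2 libraries. Depth per barcode was not matched, and free RNA as a source of these UMIs was not tested.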

How the data were processed

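Per the labels' protocols, tissue was dissociated, nuclei were extracted and libraries were built with 10x Chromium ATAC kits; the E10.5 RNA used a 10x 3' kit. The genome build is mm10, per the submitters' processing notes; no source used here names the aligner, the cell filters or the tool behind the gene score. The deposited ATAC files hold a gene-level signal, scaled by the authors so that each nucleus sums to 10000 over 8269 genes; fragment counts are not given. The deposited RNA file holds raw UMI counts. Columns of other samples numbered 0. Mean scores were compared as log2 ratios with a pseudocount of 0.1, over genes above 0 in at least 10% of the nuclei of a group, leaving out the 4 rule genes, in each library separately. A gene was called at 2-fold, in both libraries for members against other nuclei. Genes named were the rule genes and markers, Ptf1a, the highest and lowest of each of 21 lists, called erythroid genes, the 15 highest and 10 lowest, 8 each way for KO over WT and the 5 most like the rule sum. Shares carry exact Clopper-Pearson intervals and Newcombe intervals of the difference (95%). Alternatives covered pseudocounts, filters, thresholds, centring, matched genes above 0 and shares of nuclei. The calculations were tested on simulated data. Python 3.11.15, numpy 2.4.6, scipy 1.17.1 and pandas 2.3.3 were used. RefSeq tables (GRCm38.p6) gave positions for 8220 of 8225 genes and promoter windows for 6662; the first window was used for the 11 of 50 erythroid genes with several. The members and lists were chosen with earlier results of these data known. A few genes picked by the naming rule are not reported here.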

Additional observations from a re-analysis of the deposited data

How the results depend on the processing

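Of 69 alternative values for the shares and the counts of genes, 48 stayed within the limits (counting interval for shares, 1.5 times for counts), 21 moved and 0 reversed. The WT share was 9.95% at a rule sum of 10 and 5.65% among nuclei with at least 3000 genes above 0. Genes higher and lower in members than in other nuclei numbered 240 and 808 with a pseudocount of 0.5, and 3 were higher by the share of nuclei above 0. Genes higher and lower in KO than in WT members numbered 24 and 267 with a pseudocount of 0.01, 0 and 7 with a pseudocount of 0.5, 1 and 21 with the 25% filter, 19 and 27 at a rule sum of 20, 8 and 64 with at least 3000 genes above 0, 73 and 1 by the share of nuclei above 0, and 30 and 5 without the members above the epithelium line, an alternative chosen after seeing the data. The higher genes numbered 4 both after centring on the median and with matched genes above 0. By the share of nuclei above 0, signs changed for Steap3 (members over others, -0.04) and, for KO over WT, for Flt1 (0.03), Trio (0.15) and Rph3al (0.11). Without the members above the line, KO over WT changed sign, among the 8 lowest genes, for Nkx6-1 (0.36), Flt1 (0.15) and Rph3al (0.53). Other genes called lower in KO members also changed sign. Among them were Nr5a2 (-1.64 to 0.46), Hmga2 (-1.44 to 0.26), Cyr61 (-1.32 to 0.13) and Dlk1 (-1.22 to 0.19). The cause was not tested. Of 1590 single-gene values, 1400 moved by less than 1.5-fold, 183 by more without a change of sign among called genes, and 7 reversed. These 7 are the sign changes of Steap3, Flt1, Trio, Rph3al and Nkx6-1 given above and leave out genes such as Nr5a2. No paired analysis was possible because there was 1 library for each genotype at each stage and assay. The unknown number of fragments per nucleus limits what low scores can show.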

Other observations

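A pair of neighbouring non-coding RNA genes was higher in the red-cell-like nuclei. Malat1, a nuclear RNA of most cells, had a mean score of 10.2 in WT members and 11.7 in KO members, against 2.95 and 3.4 in the other nuclei. Neat1, the scaffold RNA of paraspeckles, had 8.46 and 9.55 against 1.7 and 1.94. They form a run of 3 neighbouring higher genes with Frmd8 on chromosome 19 (chr19:5795690-5875269), with log2 ratios of 1.76, 2.24 and 1.06. They were named after their values were seen.

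Other runs of neighbouring higher genes held Rhd with Tmem50a, Rsrp1 and Syf2 on chromosome 4 (log2 1.47, 1.40, 1.71 and 1.22), Abcb6 with Cnppd1, Zfand2b and Atg9a on chromosome 1 (1.64, 2.23, 1.33 and 1.20), and the autophagy gene Gabarap with Ctdnep1, Phf23 and Dvl2 on chromosome 11 (1.43, 1.21, 1.50 and 1.45). In the Rhd and Abcb6 runs a gene outside the erythroid lists had a larger ratio than the erythroid gene itself. Rsrp1 exceeded Rhd, and Cnppd1 exceeded Abcb6.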
